A study of Mus musculus with 6 samples.

Results

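The Z-disc is the plate that borders each sarcomere, where alpha-actinin holds the ends of actin filaments together, and where titin, which spans from there to the middle of the sarcomere, and nebulin, which runs along the thin filament, are anchored. Desmin filaments tie neighbouring Z-discs to each other and to the cell membrane, and small heat shock proteins guard these filaments. By symbol, 10 genes of this structure were looked up among the deposited transcripts (Ttn, Neb, Actn2, Actn3, Des, Ldb3, Cryab, Xirp1, Myoz1 and Tcap), and FPKM, a level per length of transcript and per size of the library, were summed over the transcripts of each gene. Of these 10 genes, 4 had a listed transcript, with 11 transcripts between them, out of 11835 genes in the table, and all 4 passed the filter on low values. Titin (Ttn) and nebulin (Neb) themselves, Actn2, Xirp1, Myoz1 and Tcap have no listed transcript and were not analysed here, so the values below describe fast alpha-actinin, desmin, the PDZ-LIM protein LDB3 and alpha-B crystallin and say nothing of titin or nebulin.

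RNA came from C2C12, a mouse myoblast line that fuses into myotubes when serum is lowered. Cultures were transfected either with a negative control siRNA (siNC, 3 libraries) or with an siRNA against calponin 3, an actin-binding protein (siCNN3, 3 libraries). By the study's methods the first transfection was made in sparse cultures, horse serum was given near confluence to differentiate them, and the transfection was repeated for differentiation. The cultures carry no other named agent or genotype, all come from 1 cell line, and nothing states whether the 3 libraries of a group are separate cultures, so p-values measure the spread between these libraries only. The number of reads is not known, and no counting error can be given.

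The targeted gene Cnn3 was at 62.8, 61.4 and 62.8 FPKM under siNC and 19.04, 39.2 and 25.6 FPKM under siCNN3, with replicates in the order 1, 2, 3 here and below. Every siCNN3 library was lower, but limma did not call it over all genes (log2 fold change -1.19, SE 0.242, adjusted p = 0.0669), and of the 6 fits with a library left out it was called in 1, without siCNN3 replicate 2 (-1.46, adjusted p = 0.0475). The paper describes the sequenced cells as differentiating myoblasts. Of 10 myotube markers 7 were listed, while Myh8, Cav3 and Ryr1 have no listed transcript. Their levels were low. Myog, a transcription factor of differentiating myoblasts, was at 1.23, 3.07 and 2.26 FPKM under siNC and 0.785, 0.907 and 0.485 FPKM under siCNN3. Ckm, the creatine kinase of mature muscle, was under the filter at 0.714, 0.911 and 0.414 FPKM under siNC and 0, 0.0760 and 0 FPKM under siCNN3, and the summed FPKM of the 6 tested markers, of which 4 passed the filter through their siNC values alone, was 13.4 to 22.0 in siNC and 4.17 to 5.30 in siCNN3. Genes used as markers of other cell types are given as well, all measured in the same cell line. The 4 globin genes Hbb-bs, Hbb-bt, Hba-a1 and Hba-a2, markers of blood, summed to 224.5, 653.2 and 231.6 FPKM under siNC, where replicate 2 stood apart, and to 68.2, 72.7 and 49.9 FPKM under siCNN3, while Ptprc, a marker of white blood cells, has no listed transcript, and the 4 listed of 6 fibroblast markers summed to 760.0 to 1061 FPKM in siNC and 407.3 to 550.0 FPKM in siCNN3, with Lum and Thy1 without a listed transcript. Hbb-bs and Hbb-bt were called lower by limma (adjusted p = 0.0264 and 0.0495). Of the fibroblast markers 0 were called (lowest adjusted p = 0.0751, limma), and Pdgfra and Col1a1 overlapped. Their sum was mostly Col3a1, with means of 772.1 FPKM in siNC and 410.3 FPKM in siCNN3. Of the 8 markers of undifferentiated myoblasts, 7 were listed, Des among them, Pax7 was not, and their sums overlapped (272.5 to 304.5 FPKM in siNC, 206.4 to 283.3 FPKM in siCNN3). These sums are mostly Itga7 and Des, and the members differed in sign, with Itga7 at -0.63 and Myf5, a factor of proliferating myoblasts, at 0.88 (log2 fold changes by limma, adjusted p = 0.244 and 0.238). The 4 listed of 8 cardiac or smooth muscle markers summed to 272.5 to 435.5 FPKM in siNC and 217.2 to 229.1 FPKM in siCNN3, mostly from Acta2, the smooth muscle actin (means of 340.6 and 194.1 FPKM), while Tnnt2, Cnn1 and Tagln overlapped and Nppa, Nppb, Myh6 and Myh11 have no listed transcript. The part of these differences in the values below was not tested.

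The siRNAs define the groups, and their antisense strands are shown with the seed, bases 2 to 8, in capitals, to compare them with the Z-disc transcripts:
NC siRNA: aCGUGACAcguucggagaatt
CNN3 siRNA1: uUGGUGCCaaugccuaggctt
CNN3 siRNA2: uUAACGCCaaugucaauggt
CNN3 siRNA3: uUCCGACCcauuggugccctt
Which of the 3 CNN3 siRNAs was used for sequencing is not given in the sources used here. The complement of the first 19 bases of each CNN3 siRNA was found in transcripts of Cnn3 alone and in 0 of the 11 Z-disc transcripts. A 7-base match to the seed of CNN3 siRNA1 was found once among them, at nucleotide 1104 of the desmin transcript Des-201, in its coding sequence, and 21.1% of the 23949 annotated transcripts in the table hold such a match. The seeds of NC siRNA, CNN3 siRNA2 and CNN3 siRNA3 had 0 matches in the 11 transcripts, where 6.12%, 2.65% and 5.45% of all transcripts hold one.

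The knockdown cultures contained less Actn3 and Des RNA in every library than the control cultures, with Actn3 at 56.7% and Des at 78.0% of the siNC mean, whereas Ldb3 and Cryab overlapped between the groups. None of these differences passed the test over all genes. Fold changes are on the log2(FPKM + 1) scale, where low genes appear to change less than they do, and were tested with limma, a moderated linear model fitted to 11593 genes averaging 0.5 FPKM or more, at a Benjamini-Hochberg adjusted p below 0.05. By this rule 0 of the 4 genes were called lower, where 0.336% of all tested genes were, and 0 were called higher, where 1.73% of all genes were. That is 39 genes lower and 200 higher, a split that became 93 and 199 after quantile normalization. With 1 library left out, 4 to 161 genes were called lower and 16 to 444 higher, the most in both directions without siCNN3 replicate 3. At an unadjusted p below 0.05, Actn3 and Des were lower, 2 of 4 genes, beside 6.14% of all genes, and the same 2 had groups that did not overlap, beside 9.35% of all genes that lay lower in this way. The median log2 fold change of the 4 genes was -0.27, against 0.03 over all tested genes, and their median relative to the siNC mean was -0.12, 0.09 and 0.01 in the siNC libraries and -0.30, -0.27 and -0.30 in the siCNN3 libraries. In these bulk libraries, fewer myotubes, less RNA per myotube and less RNA in undifferentiated myoblasts, which also contain Des RNA, cannot be told apart.

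Actn3 encodes the alpha-actinin of fast muscle fibres, which crosslinks actin at the Z-disc. It lies on chromosome 19 of GRCm38, from 4861216 to 4877909, and has 1 listed transcript of 2887 nucleotides and 21 exons. Its level was 19.3, 17.8 and 19.4 FPKM under siNC and 8.02, 10.3 and 13.8 FPKM under siCNN3. The siNC libraries lay close together at 18.8 ± 0.891 FPKM (SD, n = 3), and the siCNN3 libraries spread further, below them, at 10.7 ± 2.89 FPKM (SD, n = 3), with replicate 3 nearest to siNC. By limma Actn3 differed by -0.79 on the log2 scale (SE 0.193, adjusted p = 0.104), and the two-sided exact permutation p was 0.1, the smallest that 3 against 3 libraries allow. Without siCNN3 replicate 3 the difference was -0.97 and Actn3 was called lower (adjusted p = 0.0245, limma), in a fit that called 1.39% of all genes lower.

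Alpha-actinin RNA in these cells was mostly of the non-muscle genes Actn1 and Actn4, which crosslink actin in stress fibres and at adhesions. Actn1 was at 104.7, 134.4 and 125.8 FPKM under siNC and 102.2, 109.8 and 109.9 FPKM under siCNN3 (log2 fold change -0.17, adjusted p = 0.537, limma). Actn4 was at 88.1, 96.3 and 93.2 FPKM under siNC and 89.0, 73.6 and 105.0 FPKM under siCNN3 (log2 fold change -0.07, adjusted p = 0.861, limma). Both overlapped between the groups. Actn3 made up 9.11%, 7.17% and 8.13% of the FPKM of the 3 alpha-actinin genes in siNC and 4.03%, 5.30% and 6.01% in siCNN3. Every siNC share was above every siCNN3 share (two-sided exact permutation p = 0.1).

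Des encodes desmin, the intermediate filament protein of muscle that links Z-discs sideways. The gene is on chromosome 1 of GRCm38 (75360329 to 75368579) and has 1 listed transcript, of 3028 nucleotides. Its RefSeq promoter is shown because Des was the most abundant of the 4 genes and has entries for its start site. It covers chr1:75360042-75360341 on the plus strand of GRCm38.p6, 250 bases before to 50 after the start, with matches to the E-box, the site of myogenic factors such as MyoD, in capitals:
Des promoter: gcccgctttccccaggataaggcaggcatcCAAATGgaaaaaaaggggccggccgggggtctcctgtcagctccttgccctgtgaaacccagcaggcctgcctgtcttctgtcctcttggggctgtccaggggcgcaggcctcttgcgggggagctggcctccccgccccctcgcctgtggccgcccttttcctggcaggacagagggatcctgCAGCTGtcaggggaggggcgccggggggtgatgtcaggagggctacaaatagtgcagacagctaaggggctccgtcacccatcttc
The 2 matches begin 220 and 36 bases before the start. The letters searched were CANNTG for the E-box, TATAAA for the TATA box and CATTCC for the MCAT element, with the MEF2 site and the CArG box of serum response factor searched by their consensus, on both strands. An E-box is held by 72.3% of the 32851 promoters of this length, so its presence does not set Des apart.

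Desmin RNA was at 113.0, 113.4 and 125.1 FPKM under siNC and 86.5, 84.3 and 103.2 FPKM under siCNN3. The groups did not overlap, and in each of them replicate 3 was the highest. The siNC mean of 117.2 ± 6.89 FPKM (SD, n = 3) compares with a siCNN3 mean of 91.3 ± 10.3 FPKM (SD, n = 3). By limma Des differed by -0.36 (SE 0.117, adjusted p = 0.196, two-sided exact permutation p = 0.1), and it was not called with any library left out (adjusted p from 0.0633 to 0.577). Vimentin (Vim), the related filament protein of myoblasts and fibroblasts, was at 840.6, 686.8 and 739.8 FPKM under siNC and 525.7, 516.4 and 875.3 FPKM under siCNN3. Desmin FPKM were 13.4%, 16.5% and 16.9% of vimentin FPKM in siNC and 16.5%, 16.3% and 11.8% in siCNN3, which overlap.

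**Figure D1:**
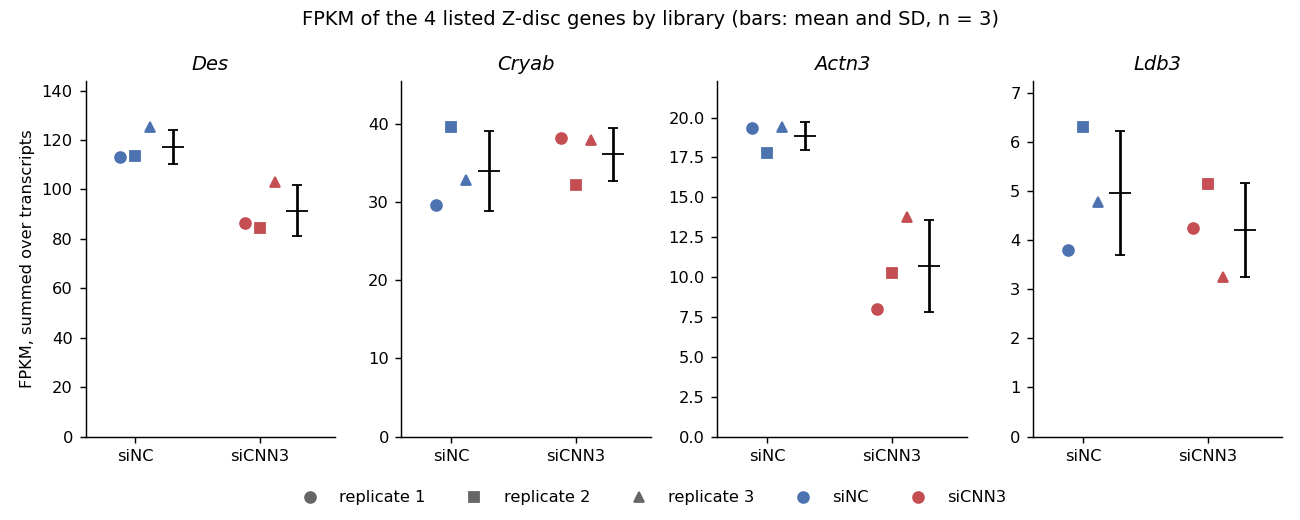
FPKM of Des, Cryab, Actn3 and Ldb3, summed over transcripts, in the 3 siNC (blue) and 3 siCNN3 (red) libraries, with marker shapes for the replicates and the mean and SD (n = 3) beside them. Each axis starts at 0. The groups do not overlap for Des and Actn3, where siCNN3 replicate 3 (103.2 and 13.8 FPKM) lies nearest to siNC, and overlap for Cryab and Ldb3.

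FPKM are per length and can be compared between the genes. Desmin was the highest, followed by Cryab, Actn3 and Ldb3, and in both groups the lowest library of each gene was above the highest library of the next, so that no neighbours in this order overlapped. Desmin FPKM were 5.85, 6.37 and 6.46 times those of Actn3 in siNC and 10.8, 8.21 and 7.503 times in siCNN3, with no overlap between the groups (two-sided exact permutation p = 0.1).

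**Figure D2:**
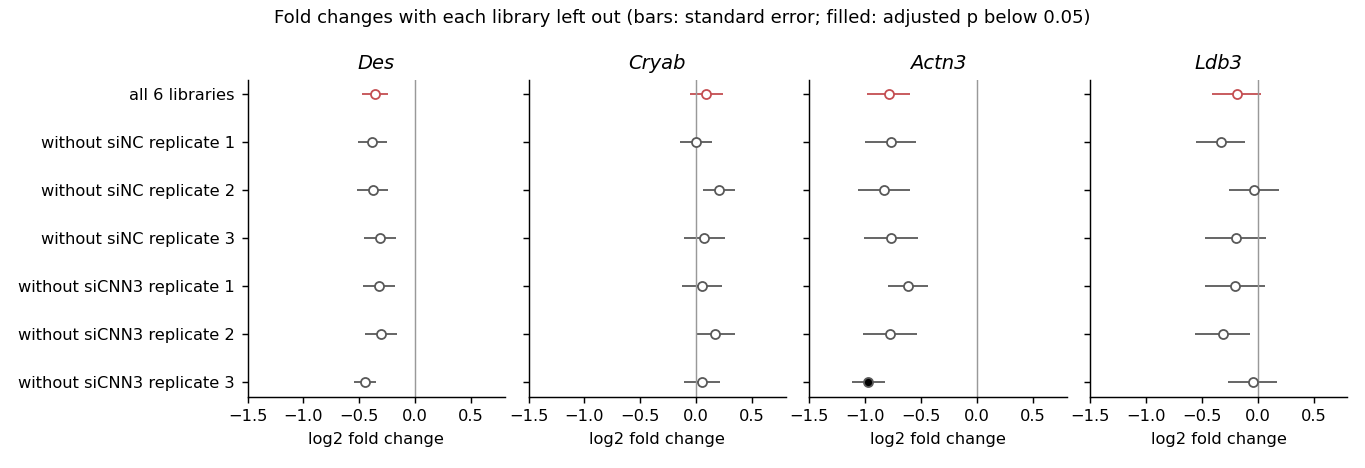
Log2 fold changes of Des, Cryab, Actn3 and Ldb3 between siCNN3 and siNC, on the log2(FPKM + 1) scale with standard errors from limma, in all 6 libraries (red) and with each library left out (grey). Filled points mark an adjusted p below 0.05. Des and Actn3 were below 0 in each fit, and the 1 filled point is Actn3 without siCNN3 replicate 3 (-0.97).

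Cryab encodes alpha-B crystallin, a small heat shock protein that binds desmin and Z-disc proteins. Summed over its transcripts, it was at 29.5, 39.5 and 32.8 FPKM under siNC and 38.1, 32.2 and 37.9 FPKM under siCNN3, which overlap. Its means were 33.9 ± 5.09 FPKM and 36.1 ± 3.35 FPKM (SD, n = 3), which differ by 0.09 on the log2 scale (SE 0.146, adjusted p = 0.801, limma) and by -0.019 after quantile normalization.

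Behind this sum the estimates for the Cryab transcripts differed in sign. The gene lies on chromosome 9 of GRCm38 (50751325 to 50756636, plus strand), and its 5 listed transcripts share the exon at 50754512 to 50754634 and differ in the first exon, and also in where the exon before the shared one starts and where the last one ends. Cryab-206 and Cryab-202 begin upstream, with first exons at 50751325 to 50751576 and 50751877 to 50751947, and are spliced to an exon at 50753081. Cryab-201, Cryab-203 and Cryab-205 begin downstream, between 50752907 and 50753020. Cryab-202 was at 1.40, 2.61 and 1.32 FPKM under siNC and 13.0, 8.99 and 6.83 FPKM under siCNN3. It was higher in every siCNN3 library, 5.41 times the siNC mean, and had the lowest mean of the 5 transcripts in siNC. The log2 fold change was 1.92 (SE 0.3001, unadjusted p = 0.000616, adjusted p = 0.0769 over 21658 transcripts, limma), so it was not called. Of all transcripts 0.462% were called higher, 6.8% were higher at an unadjusted p below 0.05 and 10.4% were higher without overlap.

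Cryab-203 had the opposite sign, with 3.998, 3.27 and 2.34 FPKM under siNC and 1.23, 1.29 and 0 FPKM under siCNN3 (log2 fold change -1.27, unadjusted p = 0.0159, adjusted p = 0.304, limma). Of all transcripts 0.0785% were called lower, 3.91% were lower at an unadjusted p below 0.05 and 7.54% were lower without overlap. An exact 0 in this table can be a failed estimate. Cryab-201, the most abundant in siNC, was at 12.9, 18.9 and 15.3 FPKM under siNC and 8.52, 7.20 and 16.7 FPKM under siCNN3 (log2 fold change -0.57, adjusted p = 0.595, limma). It was below siNC in siCNN3 replicates 1 and 2 and within siNC in replicate 3. Cryab-205 (6.78, 3.92 and 5.65 against 3.45, 2.74 and 7.66 FPKM) and Cryab-206 (4.52, 10.8 and 8.19 against 11.9, 11.98 and 6.69 FPKM) overlapped. A gene with 1 transcript higher and another lower, both without overlap between the groups, was found for 133 of the 5386 genes with 2 or more tested transcripts, or 2.47%.

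Grouped by first exon, after these values were seen, the upstream transcripts summed to 5.91, 13.4 and 9.51 FPKM under siNC and 24.9, 20.96 and 13.5 FPKM under siCNN3. Of these, Cryab-202 was higher in every siCNN3 library and Cryab-206 overlapped. Cryab-202 is the shortest Cryab transcript, with 659 nucleotides, 392 coding bases where the others have 525, and a last exon of 68 bases. Whether it is a complete transcript was not tested. The downstream transcripts summed to 23.6, 26.1 and 23.3 FPKM under siNC and 13.2, 11.2 and 24.4 FPKM under siCNN3. The upstream share of Cryab FPKM was 20.0%, 33.9% and 29.02% in siNC and 65.4%, 65.1% and 35.7% in siCNN3. All 3 siCNN3 shares were above the siNC shares, though replicate 3 lay close to the highest of them, and the two-sided exact permutation p was 0.1.

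Hspb2, another small heat shock gene, is transcribed from the opposite strand of this locus (50751078 to 50752354). The first exon of Cryab-206 lies within an exon of Hspb2 over all its 252 bases, and that of Cryab-202, 71 bases long, overlaps 0 bases of an Hspb2 exon. Whether the libraries kept the strand is not given in the sources used here, so reads from the overlap cannot be assigned to either gene with certainty, and how reads from the shared exons were divided among the Cryab transcripts is likewise not known. Hspb2 was at 10.0, 9.86 and 8.49 FPKM under siNC and 7.06, 5.48 and 10.1 FPKM under siCNN3 (log2 fold change -0.32, adjusted p = 0.510, limma), and was below its siNC levels in siCNN3 replicates 1 and 2, where the upstream Cryab transcripts were highest.

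**Figure D3:**
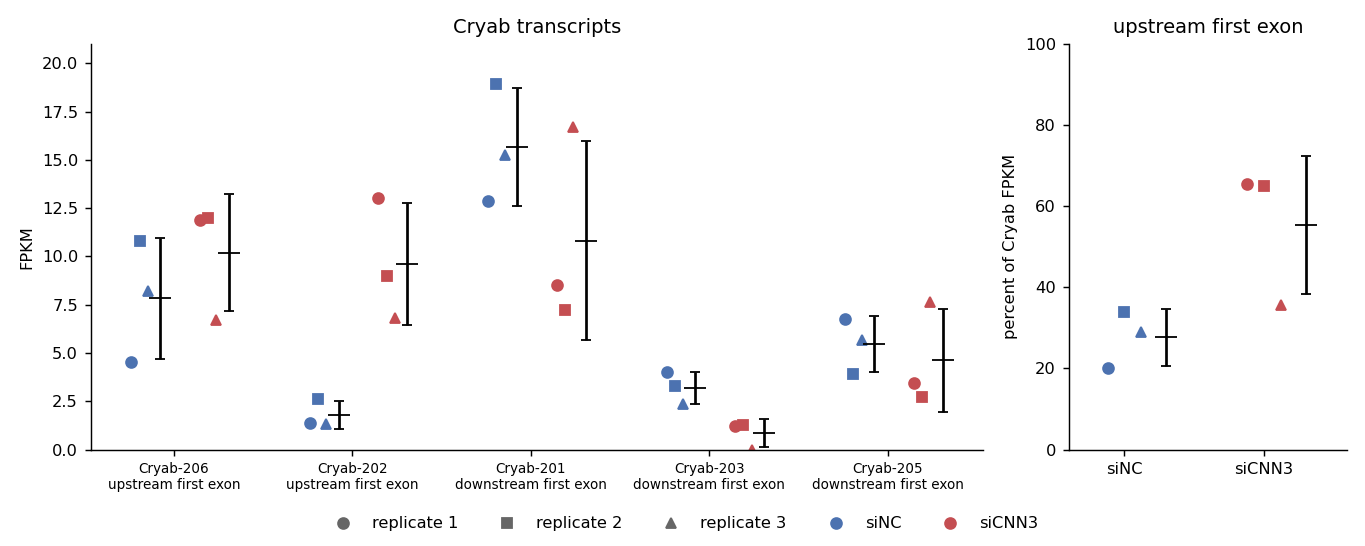
FPKM of the 5 Cryab transcripts (left) and the percent of Cryab FPKM from the 2 transcripts with an upstream first exon (right) in the siNC (blue) and siCNN3 (red) libraries, with marker shapes for the replicates and the mean and SD (n = 3) beside them. Cryab-202 was at 6.83 FPKM or more in siCNN3 and at 2.61 FPKM or less in siNC, and the upstream share was near 65% in siCNN3 replicates 1 and 2 and 35.7% in replicate 3.

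Ldb3 encodes a PDZ-LIM protein, also known as ZASP or Cypher, that binds alpha-actinin at the Z-disc. It lies on chromosome 14 of GRCm38, from 34526603 to 34588682, on the minus strand. It was the least abundant of the 4 genes, at 3.81, 6.29 and 4.77 FPKM under siNC and 4.24, 5.14 and 3.24 FPKM under siCNN3, which overlap. The means were 4.96 ± 1.25 FPKM and 4.21 ± 0.951 FPKM (SD, n = 3), a difference of -0.19 on the log2 scale (SE 0.218, adjusted p = 0.719, limma).
Its promoter is the only one of those searched for Des and Ldb3 with a CArG box, the element bound by serum response factor, which is shown in capitals in the RefSeq window chr14:34588632-34588931 (minus strand, GRCm38.p6):
Ldb3 promoter: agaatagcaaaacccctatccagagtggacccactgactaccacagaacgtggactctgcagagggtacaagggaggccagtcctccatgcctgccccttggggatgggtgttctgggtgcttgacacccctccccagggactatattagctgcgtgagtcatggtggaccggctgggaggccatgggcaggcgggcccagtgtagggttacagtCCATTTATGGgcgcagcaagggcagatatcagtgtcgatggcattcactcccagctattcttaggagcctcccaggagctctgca
The match begins 35 bases before the start (a second, overlapping RefSeq entry for Ldb3 holds the same one), and 1.63% of the 32851 promoters hold one. This is a match of letters and not a measured binding site.

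The 4 listed Ldb3 transcripts are named here for an alternative exon (A or B) and for the length of the last exon, and differ in other exons as well. A-long and A-short include an exon of 359 bases (34576986 to 34577344), whereas B-long and B-short lack it and have exons at 34572990 to 34573012 and at 34571718 to 34571921 in its place. The last exon has 2947 bases in A-long and 2825 in B-long but 512 in A-short and 278 in B-short. A-short also lacks an exon of 186 bases that the others have, and B-long has an extra exon of 15 bases and a longer first exon of 284 bases. A-short was at 1.54, 2.37 and 1.42 FPKM under siNC and 0.732, 1.26 and 0.819 FPKM under siCNN3, lower in every siCNN3 library (log2 fold change -0.51, adjusted p = 0.491, limma). A-long was at 1.88, 0 and 3.23 FPKM under siNC and 2.96, 3.82 and 2.42 FPKM under siCNN3 (log2 fold change 0.81, adjusted p = 0.660, limma). The library in which A-long was listed at 0, siNC replicate 2, was the one in which B-long was high, with 0, 2.77 and 0.119 FPKM under siNC and 0.0276, 0.0315 and 0 FPKM under siCNN3. Taken as one, both long forms had 1.88, 2.77 and 3.35 FPKM under siNC and 2.99, 3.85 and 2.42 FPKM under siCNN3, which overlap. Both short forms summed to 1.93, 3.53 and 1.42 FPKM under siNC and 1.25, 1.29 and 0.819 FPKM under siCNN3, 48.9% of the siNC mean and lower in every siCNN3 library (two-sided exact permutation p = 0.1), whereas the sums of both A forms (3.42, 2.37 and 4.65 FPKM under siNC and 3.70, 5.08 and 3.24 FPKM under siCNN3) and of both B forms (0.381, 3.93 and 0.119 FPKM under siNC and 0.545, 0.0580 and 0 FPKM under siCNN3) overlapped. These sums were chosen after the values were seen. B-short was at 0.381, 1.16 and 0 FPKM under siNC and 0.517, 0.0264 and 0 FPKM under siCNN3.

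**Figure D4:**
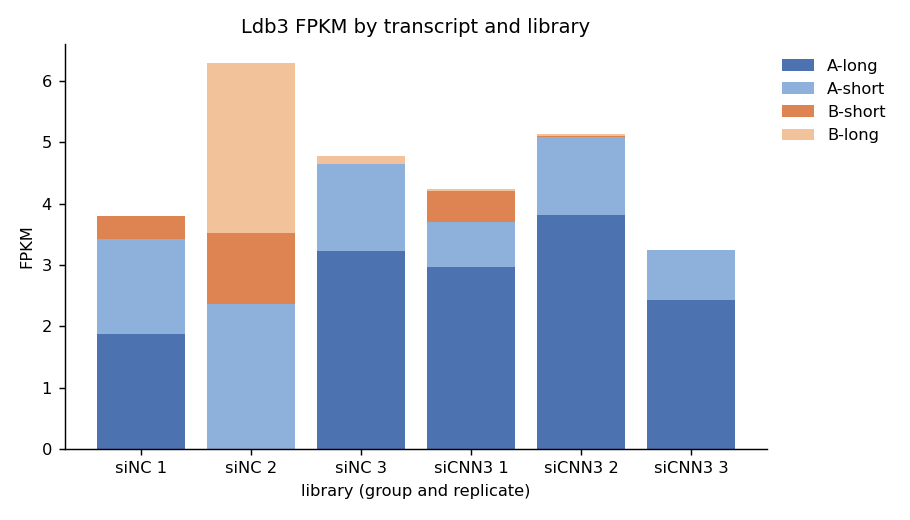
Stacked bars of the FPKM of the 4 listed Ldb3 transcripts in each library, from 0, where A has the 359-base exon, B lacks it, and long and short refer to the last exon. The height of a bar is the gene's FPKM (3.24 to 6.29). In siNC replicate 2 A-long is listed at 0 and B-long takes 44.0% of the bar, whereas in the 3 siCNN3 libraries A-long takes 69.9% to 74.7%.

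Other genes of the Z-disc and its partners were taken from 5 lists of 79 genes, of which 54 were tested. By limma 1 of the 54 was called, higher in siCNN3, beside 1.73% of all genes called higher, and 10 were lower and 6 higher at an unadjusted p below 0.05, beside 6.14% and 9.94% of all genes. Of the 54, 14 were lower and 6 higher without overlap between the groups, beside 9.35% and 13.8% of all genes, and their median log2 fold change was -0.17. The filter was passed by 5 of the 54 through siNC values alone and by 1 through siCNN3 values alone, so these counts and the median are a description only. The called gene was Fhl2, a LIM protein that binds titin, at 26.6, 26.5 and 31.6 FPKM under siNC and 44.02, 48.4 and 52.004 FPKM under siCNN3 (limma, log2 fold change 0.75, SE 0.126, adjusted p = 0.0403). It stayed called when siCNN3 replicate 3 was left out and was not called when any other library was (adjusted p up to 0.190). Among the other settings its call was lost after quantile normalization, without the mean-variance trend, with the spread of each gene on its own and with the most abundant transcript alone, and also in the fit with the replicate number as a block.

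Among 16 tested genes of the list of other Z-disc genes 0 were called by limma, 3 were lower and 3 higher at an unadjusted p below 0.05, and the median log2 fold change was -0.16. Over all tested genes the shares are 6.14% lower and 9.94% higher at that p, and 9.35% lower and 13.8% higher without overlap, against which the counts of each list are to be read. Those with the largest values without overlap were Pdlim3, a LIM protein that binds alpha-actinin (1.44, 2.05 and 1.64 FPKM under siNC and 0, 0.615 and 0.0615 FPKM under siCNN3, log2 fold change -1.17, adjusted p = 0.0590, limma), and Cavin4, a caveolar protein of muscle (17.7, 22.3 and 21.8 against 36.1, 34.1 and 28.0 FPKM, log2 fold change 0.64, adjusted p = 0.0939, limma). One lay lower and the other higher, and Pdlim3 passed the filter through its siNC values alone. Pdlim3 was called after median-of-ratios scaling (adjusted p = 0.0482) and quantile normalization (adjusted p = 0.0388), and Cavin4 without siCNN3 replicate 3 (adjusted p = 0.0452). In the same list Flnc was called higher after removal of GC and length trends (0.61, adjusted p = 0.0439, limma). Capzb was called lower after quantile normalization (-0.50, adjusted p = 0.0486, limma). The list of titin and M-band partners had 12 tested genes, with Fhl2 as its called gene, 3 lower and 1 higher at an unadjusted p below 0.05, 4 lower and 2 higher without overlap, and a median of -0.22. The nebulin family and thin-filament list had 6 tested genes, of which 0 were called by limma. The 2 that were lower at an unadjusted p below 0.05, Klhl40 and Klhl41, kelch proteins that bind nebulin, passed the filter through their siNC values alone, so that they had to differ, and the other 4 had a median of -0.29. Klhl40 had 2.12, 1.23 and 1.80 FPKM under siNC and 0, 0.0455 and 1.01 FPKM under siCNN3 (log2 fold change -1.07, adjusted p = 0.143, limma). Klhl41 had 1.59, 2.79 and 1.72 FPKM under siNC and 0.605, 0.340 and 0.463 FPKM under siCNN3 (log2 fold change -1.03, adjusted p = 0.0590, limma). Klhl41 was called after median-of-ratios scaling (adjusted p = 0.0453), quantile normalization (adjusted p = 0.0439) and removal of GC and length trends (adjusted p = 0.0450), and Klhl40 without siCNN3 replicate 3 (adjusted p = 0.0212).

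The list of muscle intermediate filaments and their partners had 10 tested genes, 0 called by limma, 2 lower and 1 higher at an unadjusted p below 0.05 and a median of -0.24. Syncoilin (Sync), a filament protein that binds desmin, was at 4.52, 5.27 and 4.88 FPKM under siNC and 2.91, 2.71 and 3.22 FPKM under siCNN3 (log2 fold change -0.58, adjusted p = 0.106, limma). Mtm1, a lipid phosphatase and no filament protein, which was listed as a partner of desmin, was at 2.44, 0.712 and 2.40 against 7.60, 4.57 and 5.83 FPKM (log2 fold change 1.34, adjusted p = 0.0935, limma). The small heat shock proteins and sarcomere chaperones had 10 tested genes, 0 called by limma, 1 higher at an unadjusted p below 0.05 and a median of 0.03. Of these, 2 were lower and 1 higher without overlap, beside 9.35% and 13.8% of all genes. Hspb8, which works with Bag3 to clear damaged Z-disc proteins, was at 12.4, 15.4 and 14.2 FPKM under siNC and 20.5, 23.2 and 20.9 FPKM under siCNN3 (log2 fold change 0.59, adjusted p = 0.0836, limma), while Stub1, a ubiquitin ligase of the same pathway, differed by -0.16 (adjusted p = 0.489, limma). Bag3 itself was at 34.8, 42.0 and 36.2 FPKM under siNC and 33.3, 33.3 and 34.0 FPKM under siCNN3. It was lower in every siCNN3 library and was not called (log2 fold change -0.16, adjusted p = 0.551, limma).

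For comparison, Myh3 (-1.38, adjusted p = 0.0193) and Tnnt3 (-1.499, adjusted p = 0.0144) were called lower by limma among the myotube markers. Both calls were lost in 3 of the 6 fits with a library left out (adjusted p up to 0.112 and 0.0847). Of the 6 tested markers, Myh3, Mymk, Mymx and Atp2a1 passed the filter through their siNC values alone, so their count in siCNN3 is not set against the Z-disc genes. The others, Myog and Tnnt3, were at 33.2% and 28.3% of their siNC mean in FPKM, and the 4 Z-disc genes at 56.7% to 106.3%, a difference that was not tested.

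**Figure D5:**
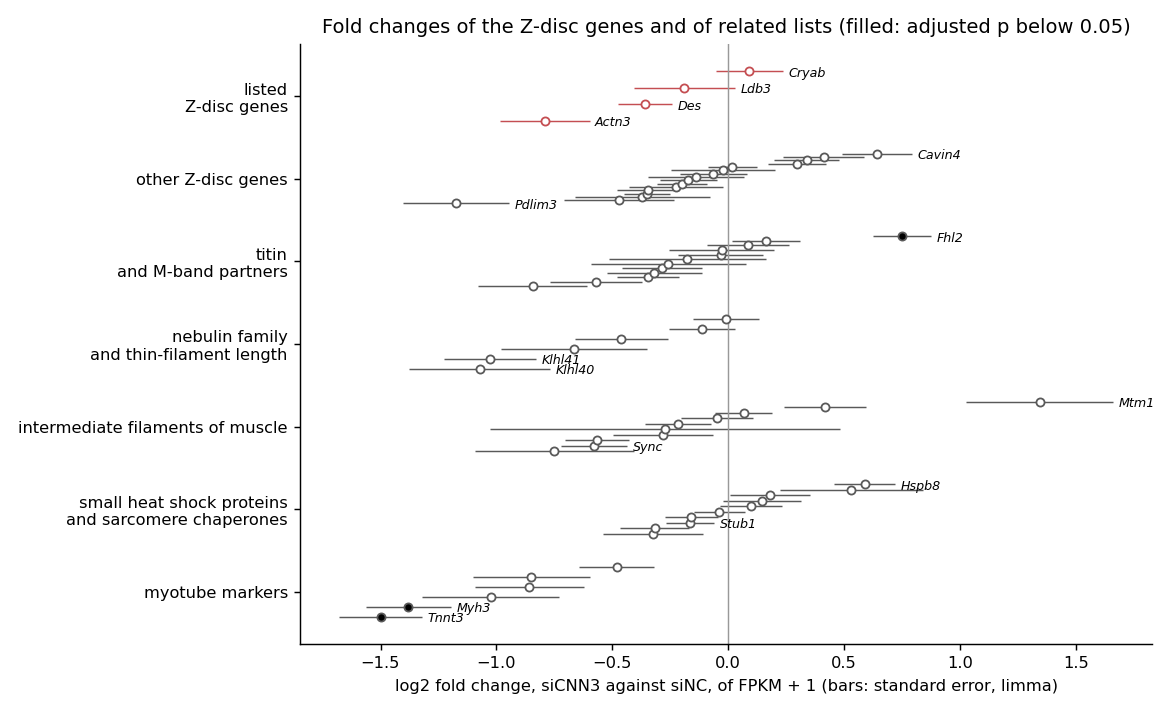
Log2 fold changes (siCNN3 against siNC, on the log2(FPKM + 1) scale) with standard errors from limma for the 4 listed Z-disc genes (red), the 5 other lists and the myotube markers, 1 point per tested gene. Filled points mark an adjusted p below 0.05, which are Fhl2 (0.75), Myh3 (-1.38) and Tnnt3 (-1.499).

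The genes whose profile over the 6 libraries was most like the mean standardized profile of the 4 Z-disc genes, among 8178 genes averaging 5 FPKM or more, were Cdk2ap2, Map4k4, Atp6v0d1, Maged1 and Vat1, with Pearson's r from 0.992 to 0.997. With 6 libraries in 2 groups this is a description only. Their log2 fold changes were between -0.45 and -0.32 and none was called (lowest adjusted p = 0.204, limma). Each of the 4 genes is part of the mean profile, which raises its own correlation with it. These correlations were 0.73 for Actn3, 0.78 for Des, 0.57 for Ldb3 and 0.29 for Cryab, the lowest.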

How the data were processed

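RNA of 3 siNC and 3 siCNN3 libraries of C2C12 cells was sequenced, and groups were taken from the sample titles. The authors deposited FPKM for 24023 Ensembl transcripts in each library, with no counts, so the depth is unknown. Their processing notes name Bowtie 0.12.2 and the builds mm8 and mm10 without a role. The program that estimated FPKM is not given in the sources used here. Identifiers were matched without version to GENCODE M21 (GRCm38), which matched 23949 of them, and FPKM were summed per symbol. How reads were divided among transcripts affects transcript values more than sums.

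The summed values, log2(FPKM + 1), were fitted with limma 3.58.1 (R 4.3.3, mean-variance trend, Benjamini-Hochberg adjustment over 11593 genes averaging 0.5 FPKM or more, threshold 0.05). In simulated data with 200 genes changed by 2 on the log2 scale, 181 were called among 195 calls, and 0 genes were called when none was changed. The changed genes were drawn from those above a low level, and the noise was independent between genes. That change is larger than the difference of any of the 4 Z-disc genes, so the simulation does not show how often differences of their size are called. Single values were compared by two-sided exact permutation tests (scipy 1.17.1). Transcripts were fitted in the same way. RefSeq promoters (GRCm38.p6) had entries for 2 of the 4 genes, Des and Ldb3.

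The Z-disc genes and all lists were chosen with earlier results of these data known. Named are the 4 listed genes, Cnn3, called genes of the other lists or else their 2 genes with the largest change without overlap, the markers, and the 5 genes of most similar profile. Actn1, Actn4, Vim, Hspb2, Bag3, Flnc and Capzb were added after their values were seen. So were the grouping of Cryab transcripts by first exon and all alternatives for Cryab-202 and the other lists. Of the blood markers, 1 is not reported here.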

Additional observations from a re-analysis of the deposited data

How the results depend on the processing

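Alternatives were another pseudocount (0.1), no filter or one at 5 FPKM, quantile normalization or scaling by median ratios, a block for the replicate number, omission of each library, limma without a trend, the spread of each gene on its own, transcripts with failed estimates left out, the most abundant transcript alone, removal of GC and length trends, and an unadjusted p below 0.05. The number of the 4 Z-disc genes called lower stayed at 0 in 16 of 18 alternatives. It was 0 to 1 with a library left out and 2 at an unadjusted p (Actn3 with -0.79 and Des with -0.36 on the log2 scale), and 0 were called higher throughout. With a library left out the log2 fold change ranged from -0.97 to -0.62 for Actn3, from -0.45 to -0.31 for Des, from -0.33 to -0.03 for Ldb3 and from -0.00087 (without siNC replicate 1) to 0.20 for Cryab. Cryab was at -0.019 after quantile normalization and -0.57 as its most abundant transcript, and Ldb3 at 0.81 as its most abundant transcript, which is listed at 0 in siNC replicate 2. No value of Cryab or Ldb3 was called. The median of the 4 genes was -0.36 with the filter at 5 FPKM, which drops Ldb3, -0.35 after quantile normalization, -0.19 after removal of GC and length trends, -0.46 with the most abundant transcript, and -0.36 to -0.21 with a library left out. Cryab-202 was between 1.70 and 2.39 in the 15 alternatives run for it and was called in 1 of them, at an unadjusted p. No label says that libraries with the same replicate number share a source, and deviations of same-numbered libraries correlated at -0.28, 0.31 and -0.02. With the replicate block 6 genes in all were called lower, 0 of the Z-disc genes and 0 of the other lists (Fhl2 included), and siNC replicate 1 correlated best with siCNN3 replicate 3 and not with its own number. Without siCNN3 replicate 3, Actn3 was the gene called. Over all genes 39 were called lower, then 63 after median-of-ratios scaling, 93 after quantile normalization, 0 with the spread of each gene on its own, 10 with the most abundant transcript, 712 at an unadjusted p and 4 to 161 with a library left out. Of the 54 genes in other lists, 3 were called after median-of-ratios scaling, quantile normalization or removal of GC and length trends, 0 without a trend, with the spread of each gene on its own or with the most abundant transcript, 16 at an unadjusted p, and 0 to 5 with a library left out. The causes were not tested.
The depth is unknown, so no limit from counting can be given for low genes such as Ldb3.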
